A study of Homo sapiens with 16 samples.

Results

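Regions bound by BCL11A or ZBTB7A were examined at 9 genes of the megakaryocyte and its platelets: GP1BA, GP1BB, GP9, ITGA2B, ITGB3, PF4, TUBB1, NBEAL2 and VWF. The genes were chosen by name. A region was taken when its summit, or its midpoint where the list gives no summit, lay in the gene body or within 20 kb of either end. The 9 genes are among 19345 protein-coding genes of the deposited annotation, and 112 of the 85461 regions in 4 peak lists lay at them. These were 24 of 12911 regions for BCL11A, 26 of 17331 for ZBTB7A in K562, 40 of 36435 for ZBTB7A in WT HUDEP-2 cells and 22 of 18784 for ZBTB7A in 195C>G HUDEP-2 cells.

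The study mapped both factors by chromatin immunoprecipitation with sequencing (ChIP-seq) in 8 ChIP and 8 control libraries. BCL11A was measured in HUDEP-2 (immortalised erythroid progenitor cells of human origin) carrying a BCL11A-ER-V5 fusion. The fusion was induced with 4-hydroxytamoxifen at 1e-07 M for 24 h and pulled down through its V5 tag (2 ChIP and 2 control libraries). The labels also give the dose as an amount in nmol, and the molar value is printed here. ZBTB7A was measured with antibodies to the protein in K562, an erythroleukaemia line (4 and 4), and in HUDEP-2 cells of the ΔGγ background. These lack the Gγ-globin gene HBG2 and carried a WT γ-globin promoter (1 and 1) or the 195C>G change in it (1 and 1), so that the deletion is shared by both ΔGγ groups and the promoter differs. All HUDEP-2 cells were grown with SCF, EPO, dexamethasone and doxycycline. The labels do not say whether each ΔGγ group is 1 clone. Control libraries are called input in their titles and are listed with an IgG antibody. The BCL11A and K562 lists combine replicates, and those of the ΔGγ cells rest on 1 library each, so no replicate error and no test over samples can be given. Scores (BCL11A) and signals (WT and 195C>G) are the authors' own and are compared only within a list. Rank 1 is the highest value, and in the K562 list, which holds no value per region, rank is the order in the file. Read depth is unknown for every list. In a bulk preparation, binding in more cells and stronger binding per cell cannot be told apart. The lists hold no expression, so the cell type labels could not be checked against marker genes.

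Megakaryocytes arise from a progenitor that they share with red cells, and both lineages depend on GATA1. Platelets, the fragments that megakaryocytes shed, attach to von Willebrand factor (VWF) through the glycoprotein Ib-IX-V complex and to fibrinogen through the integrin αIIbβ3. Their α-granules store VWF and the chemokine platelet factor 4, and a ring of microtubules built with the TUBB1 tubulin keeps their disc shape. BCL11A and ZBTB7A are zinc-finger repressors best known in red cells for silencing the fetal globin genes.

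BCL11A had a promoter region, defined as one within 1 kb of an NM_ transcript start, at 4 of the 9 genes: GP1BB at rank 16, TUBB1 at rank 382, ITGB3 at rank 7100 and NBEAL2 at rank 7369. The share of all protein-coding genes with a BCL11A promoter region was 24.3%. ZBTB7A had promoter regions at 3 of the 9 genes in each of its lists. In K562 these were NBEAL2, ITGB3 and ITGA2B, at ranks 10762, 12174 and 15807. In WT they were GP1BB, ITGA2B and ITGB3, at ranks 12360, 13685 and 34162, and in 195C>G they were GP1BB, ITGB3 and TUBB1, at ranks 6885, 9630 and 11703. All protein-coding genes had a promoter region at 33.1% in K562, 29.1% in 195C>G and 44.9% in WT. With 9 genes, each ZBTB7A count lay within about 1 gene of its share, and the BCL11A count lay about 2 genes above. ITGB3 was the gene with a promoter region in all 4 lists, GP1BB had one in 3, and ITGA2B, TUBB1 and NBEAL2 had one in 2. GP1BA, GP9, PF4 and VWF had none in any list. Shares of all genes by number of lists were not taken, so these tallies by gene are description only.

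**Figure D1:**
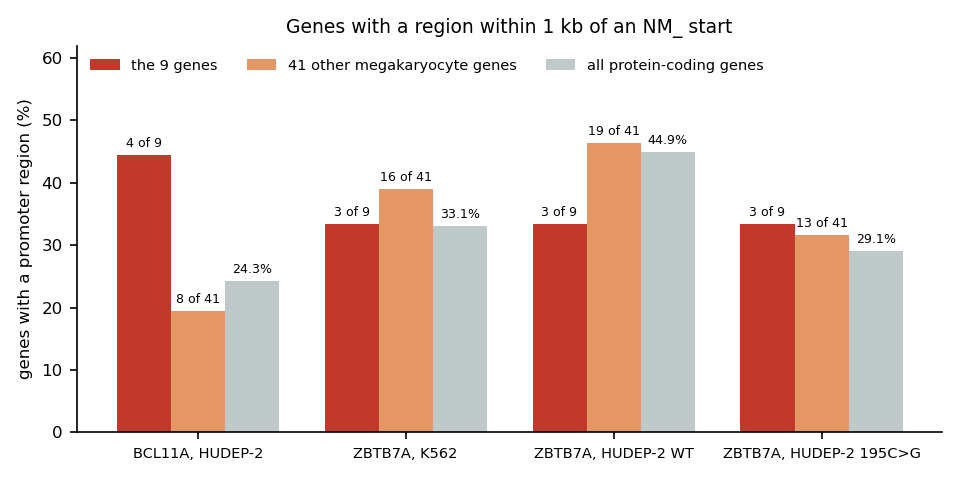
Share of genes with a region within 1 kb of an NM_ start (vertical axis, %) in each of the 4 peak lists, for the 9 genes, 41 other megakaryocyte genes and all protein-coding genes. The 9 genes stood at 4 of 9 for BCL11A against 24.3% of all genes, and at 3 of 9 in each ZBTB7A list against 29.1 to 44.9%.

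The 2 best BCL11A promoter ranks lay near the top of its list. A promoter region in the best-ranked 10% of the BCL11A list was found at 2 of the 9 genes, GP1BB and TUBB1, against 2.70% of all genes. No member had such a region at its NM_ start in the 3 ZBTB7A lists, where the shares of all genes were 4.59% in K562, 3.80% in 195C>G and 9.41% in WT. This depends on the starts used. At further starts of the RefSeq gene table, described below, the best-ranked 10% held GP9 for BCL11A (rank 63) and K562 (rank 1449). It also held NBEAL2 in K562 (rank 746). No share of all genes was taken for those starts. Whether the counts differ between the factors was not tested, because the lists differ in length, in how they were ranked and in cell line.

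**Figure D2:**
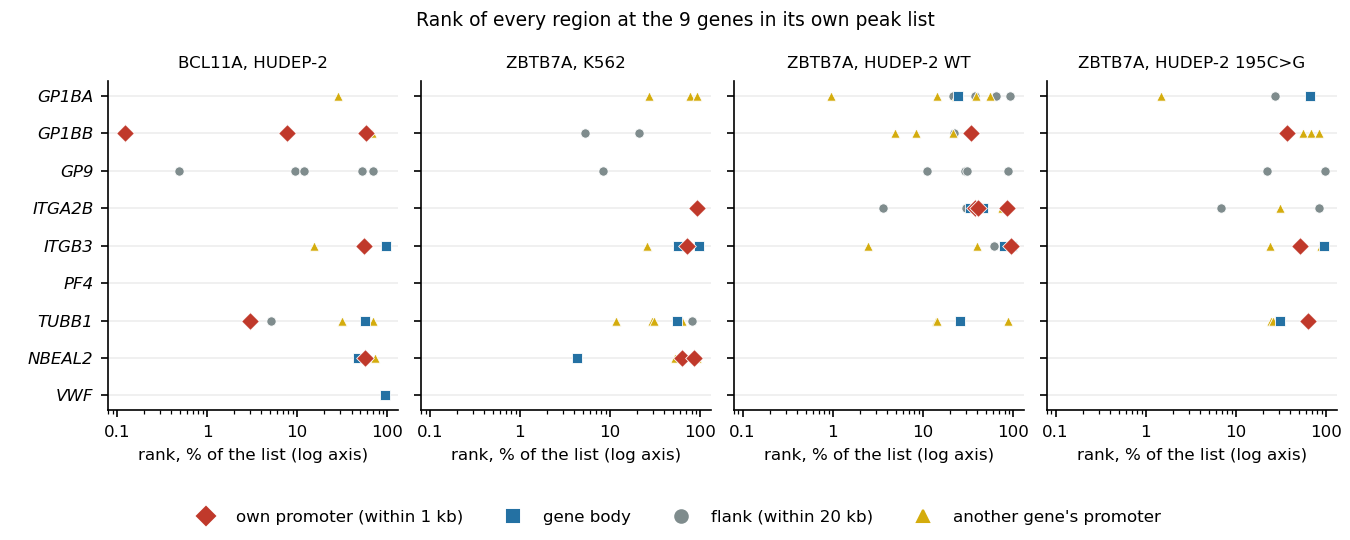
Rank of each of the 112 regions in its own list, as a percentage of the list's length on a log axis (left is a better rank, which in K562 is only an earlier place in the file), by gene and peak list. The GP1BB promoter region at 0.124% and the GP9 flank region at 0.488% of the BCL11A list lie farthest to the left. The PF4 row is empty.

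With the gene body and 20 kb on each side, 7 of the 9 genes had at least 1 BCL11A region against 48.6% of all genes, 7 had one in K562 against 57.4%, 6 in WT against 68.3% and 6 in 195C>G against 53.4%. The windows of the 9 genes had a median length of 47.4 kb, against 64.3 kb over all genes in the BCL11A and K562 counts. At least 5 BCL11A regions lay at TUBB1 and GP9, a number reached by 5.06% of all genes. In K562 ITGB3, TUBB1 and NBEAL2 reached 5 (7.62% of all genes), in WT GP1BA, GP1BB, ITGA2B and ITGB3 did (22.0%), and in 195C>G TUBB1 did (7.92%). Regions at promoters of neighbouring genes made up 7 of the 24 for BCL11A, 11 of 22 in 195C>G, 13 of 26 in K562 and 15 of 40 in WT. Regions at promoters are common in the whole lists too. Outside promoters lay 57.9% of all BCL11A regions, 62.8% in 195C>G, 55.8% in K562 and 63.6% in WT. Without the regions at neighbouring promoters, the 9 genes had 17 regions for BCL11A, 11 in 195C>G, 13 in K562 and 25 in WT.

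GP1BB encodes the β subunit of glycoprotein Ib, which is joined to the ligand-binding α subunit by disulfide bonds. The gene is short, with 2 exons over 1232 bp (NM_000407, chromosome 22, 19723543 to 19724774, plus strand, hg38). Its strongest BCL11A region ran from 19723137 to 19723786, or -406 to 243 bp relative to the start, with a score of 1093 where the list's median was 29.4. It was the eighth of 4705 promoter-bound genes when genes are ordered by their best promoter region. A neighbouring BCL11A region in exon 2, from 252 to 858 bp after the start, had a score of 119 (rank 985). A further region, from -1129 to -760 bp, had a score of 25.4 (rank 7544). ZBTB7A in WT had 1 promoter region there, with a signal of 33.0, a −log10 false discovery rate of 3.92 and a summit 116 bp upstream of the start. In 195C>G the region had a signal of 47.5, a −log10 false discovery rate of 3.67 and a summit 115 bp upstream, 1 bp from that of WT. Both ZBTB7A regions overlapped the strongest BCL11A region. Their ranks, 12360 of 36435 and 6885 of 18784, placed them at 33.9% and 36.7% of their lists, and the BCL11A region stood at 0.124% of its own. K562 had no region within 1 kb of this start.

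The bases before the GP1BB start are shown because the strongest BCL11A region covers them and both HUDEP-2 ZBTB7A summits lie in them. They are the RefSeq sequence of GRCh38.p14 covering the 250 bases before the RefSeq start (chr22:19723289-19723538, plus strand). Capitals mark matches, on either strand, to 6 motifs: TGACCA of BCL11A, GACCC of ZBTB7A, AGATAA of GATA factors, CAGGAA of ETS factors, TGTGGT of RUNX factors and CCACCC, the CACC box of KLF factors.
GP1BB: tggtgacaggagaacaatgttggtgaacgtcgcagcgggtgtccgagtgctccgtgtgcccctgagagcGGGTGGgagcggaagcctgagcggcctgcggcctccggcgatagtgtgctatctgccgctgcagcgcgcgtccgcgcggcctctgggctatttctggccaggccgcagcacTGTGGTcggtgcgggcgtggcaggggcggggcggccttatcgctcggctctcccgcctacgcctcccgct
The capitals here are CCACCC on the opposite strand, from -181 to -176, and TGTGGT on the gene's strand, from -70 to -65. No 2 matches overlapped each other. The TGTGGT match was centred 10 bp after the midpoint of the BCL11A region and 44 bp after the WT summit. Of 35116 RefSeq promoters of the same length, 3855 hold TGTGGT. The other shares were 31.3% for CCACCC, 9.19% for TGACCA, 42.1% for GACCC, 9.17% for AGATAA and 24.1% for CAGGAA. A match describes the letters only and is not shown to be a bound site. The GC content of these 250 bases was 70.0%, against a median of 58.0% over those promoters.

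Upstream of GP1BB lies SEPTIN5, a septin gene whose promoter holds the regions about 5 kb before the GP1BB start. ZBTB7A in WT had 3 overlapping regions there, with signals of 84.6, 68.3 and 42.9 (ranks 1777, 3019 and 7864). In 195C>G 3 regions there had signals of 37.6, 33.4 and 29.1 (ranks 10484, 12706 and 15733), and BCL11A had 1 with a score of 21.8 (rank 8700). The SEPTIN5 promoter held the best-ranked ZBTB7A region of this locus in WT, while in 195C>G the GP1BB promoter did. Downstream, K562 had a region 7456 bp after the GP1BB start at rank 901, overlapped in WT by a region at rank 8000 with a signal of 42.6. K562 also had a region 18003 bp upstream at rank 3620 that no other list overlapped.

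GP9 encodes glycoprotein IX, the small partner that the complex needs to reach the platelet surface. Its annotated transcript (NM_000174, chromosome 3, 129060767 to 129062411, plus strand, 3 exons) had no region over its body or within 1 kb of its start in any list. All 4 lists instead had a region about 6 kb upstream. BCL11A had a score of 557 there (129054527 to 129055002, rank 63), which was place 42 among the 7470 BCL11A regions outside promoters. The K562 region (129054607 to 129055011) stood at rank 1449. The WT region (129054643 to 129054945) had a signal of 60.2 at rank 4016, and that of 195C>G (129054705 to 129054906) a signal of 60.4 at rank 4186. The 195C>G region lay wholly inside the other 3, with midpoints or summits between 6003 and 5958 bp before the start.

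The same place is the 5′ end of GP9 in the RefSeq gene table. There the gene begins at 129054845, 5922 bp upstream of the NM_ start, and the points of the 4 best regions lay 81 bp (BCL11A), 36 bp (K562), 80 bp (WT) and 58 bp (195C>G) before it. The RefSeq entry holds 2 predicted (XM_) transcripts beside NM_000174, and the table does not say which of them starts there. Counting RefSeq table starts as well, a choice made after this was seen and without chromosome 11, GP9 had a promoter region in all 4 lists. The counts became 5 of 9 for BCL11A (25.3% of all genes) and 4 of 9 in K562 (34.3%), WT (46.4%) and 195C>G (30.2%). BCL11A had 4 more regions upstream of GP9, with scores of 103, 88.6, 28.2 and 21.3, at 3706 to 8516 bp before the start. The one at 3706 bp, rank 1208, was overlapped in WT (signal 36.2, rank 10625) and by no region in K562 or 195C>G. The last 3 were found in no other list.

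**Figure D3:**
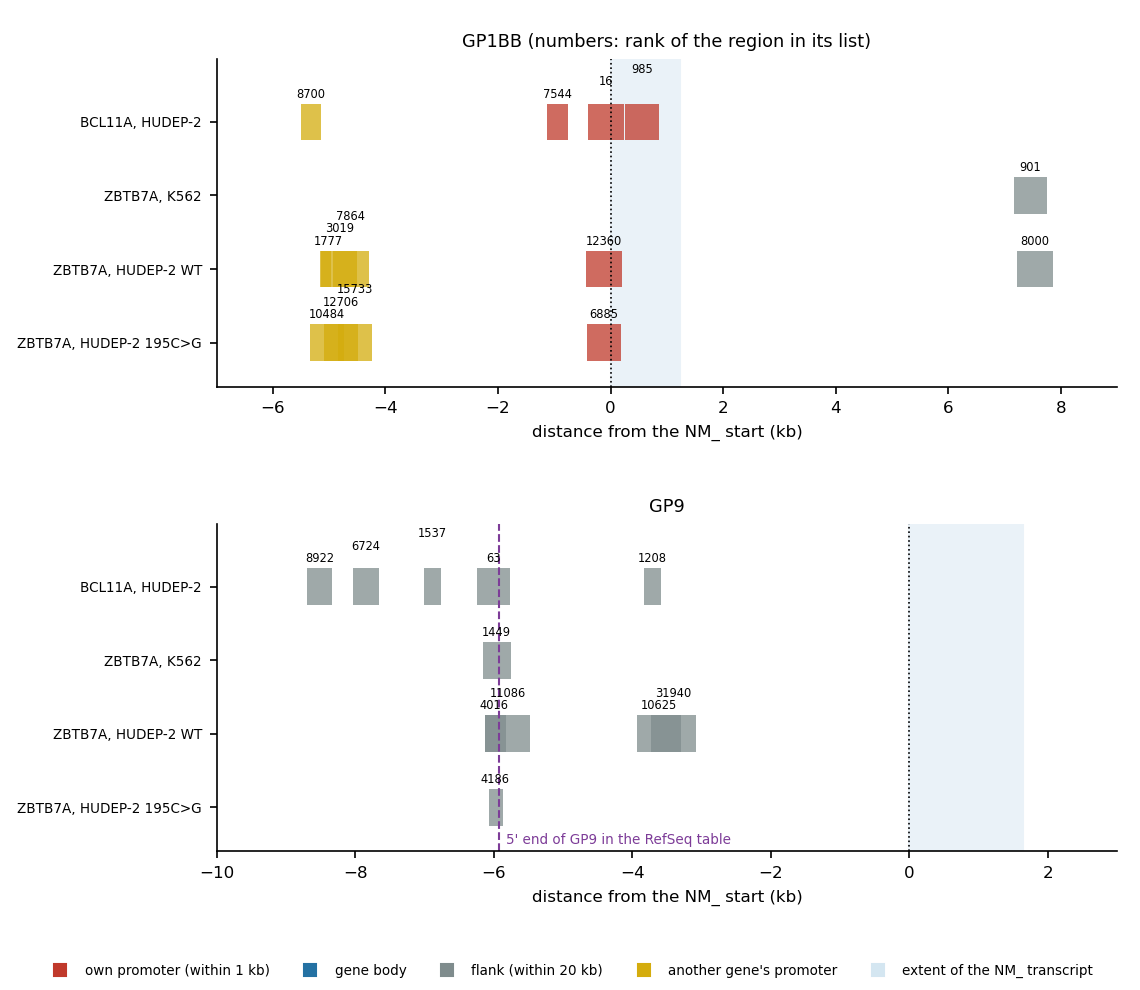
Regions at GP1BB and GP9 by distance from the NM_ start in kb (horizontal axis; dotted line, the start; negative is upstream), 1 row per peak list, with each region's rank printed above it. BCL11A had rank 16 over the GP1BB start, and all 4 lists had a region at the RefSeq 5′ end of GP9 (dashed line), with rank 63 for BCL11A. A K562 region 18003 bp upstream of GP1BB and a 195C>G region 21075 bp after the GP9 start lie outside the plotted range.

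GP1BA encodes the α subunit, which binds VWF. No list had a region within 1 kb of its start (NM_000173, chromosome 17, 4932275 to 4935030, plus strand). ZBTB7A had a region in exon 2, which holds the coding sequence, 2276 bp after the start in WT (signal 39.9, rank 8971) and 2256 bp in 195C>G (signal 33.9, rank 12429). The remaining regions all lay downstream, towards RNF167 and SLC25A11, PFN1, which encodes the actin-binding protein profilin, and ENO3, which encodes a muscle enolase. The ENO3 promoter gave the best rank of the window in every list: 3631 for BCL11A (score 48.0), 4711 in K562, 275 in 195C>G (signal 153) and 352 in WT (signal 141). BCL11A had no other region in the GP1BA window. A window of 10 kb in place of 20 kb leaves GP1BA without a BCL11A or K562 region.

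ITGA2B and ITGB3 encode the chains of αIIbβ3, and ITGA2B is the marker CD41 of the megakaryocyte lineage. At ITGA2B (NM_000419, chromosome 17, 44372181 to 44389601, minus strand, 30 exons) BCL11A had no region in the body or within 20 kb. ZBTB7A in WT had 11 regions, more than at any other member. Of these, 3 lay at the promoter, with signals of 31.0, 29.3 and 17.1 and summits 282 and 52 bp after and 153 bp before the start. In the body, WT summits lay in intron 1, exon 2 and intron 3, with signals of 27.1, 27.7 and 33.6. A pair of overlapping regions 3690 and 3891 bp upstream stood at ranks 10976 and 31082. None of these 8 regions was overlapped in 195C>G. They fell in deciles 4, 5 and 9 of WT rank, where 64.8, 55.1 and 27.6% of all WT regions were overlapped. Several of them overlap one another, so they are not separate sites. K562 had a promoter region 382 bp upstream of the start, at rank 15807 of 17331, which overlapped the WT regions of ranks 14952 and 30764. The best-ranked region of the window in each ZBTB7A list lay inside FAM171A2, with its WT summit 17355 bp beyond the end of ITGA2B. It was found in WT (signal 94.3, rank 1313), in 195C>G (97.5, rank 1273) and in K562 (rank 15299).

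The ITGA2B promoter is shown because WT and K562 had regions on it and 195C>G and BCL11A had none. The sequence is chr17:44389650-44389899 of GRCh38.p14, minus strand, from RefSeq, with capitals for the same motifs.
ITGA2B: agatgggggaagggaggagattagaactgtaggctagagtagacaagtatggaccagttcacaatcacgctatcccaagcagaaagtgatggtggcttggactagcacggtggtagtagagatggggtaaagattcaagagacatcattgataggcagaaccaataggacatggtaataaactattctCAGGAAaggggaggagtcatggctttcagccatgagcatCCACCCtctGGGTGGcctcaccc
Its matches were CAGGAA from -62 to -57 and CCACCC on both strands, at -23 to -18 and -14 to -9, counted from the RefSeq start. It held neither TGACCA nor GACCC, and its GC content was 48.8%.

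At ITGB3 (NM_000212, chromosome 17, 47253842 to 47312711, plus strand, 15 exons) every list had a promoter region, each below the middle of its list. BCL11A had a score of 26.9 (rank 7100) and K562 stood at rank 12174, with midpoints 61 and 37 bp after the start. The WT summit lay 361 bp after the start with a signal of 15.8 (rank 34162), and the 195C>G summit 338 bp before it with a signal of 39.4 (rank 9630). These last regions shared no base with each other, although each overlapped those of BCL11A and K562. A place in intron 6, about 35 kb into the gene, had ZBTB7A regions in K562 (ranks 9732 and 16680), WT (28618 and 35328) and 195C>G (17547), and none of BCL11A. BCL11A had its own region in intron 1, at rank 12474 with a score of 13.9, and WT had one 13476 bp upstream at rank 22191. The best-ranked region of the window in each list lay beyond the end of ITGB3, at the EFCAB13 promoter, with ranks of 1966 for BCL11A, 4435 in K562, 4435 in 195C>G and 899 in WT.

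TUBB1 encodes the β-tubulin restricted to megakaryocytes and platelets. The BCL11A region at its promoter (NM_030773, chromosome 20, 59019254 to 59026654, plus strand) ran from -26 to 291 bp and had rank 382, its score being 217. It was number 143 of the 4705 promoter-bound genes. ZBTB7A in 195C>G had a region over it with a signal of 35.2, a −log10 false discovery rate of 2.58 and rank 11703, and K562 and WT had none within 1 kb. Here the longer WT list lacked a promoter region that the shorter 195C>G list had. A second place, in intron 1 and 1921 to 1964 bp after the start, was found in all 4 lists. BCL11A had rank 7251 there, K562 9447, WT 9409 (signal 38.9) and 195C>G 5798 (signal 51.8). BCL11A also had a region 7837 bp upstream with a score of 154 (rank 656), which a K562 region at rank 13852 overlapped at its edge. Other regions of the window lay at CTSZ, which encodes the protease cathepsin Z, at ATP5E, which encodes a subunit of ATP synthase, and at PRELID3B. The best CTSZ ranks were 3996 for BCL11A, 1993 in K562, 4623 in 195C>G and 5197 in WT. Those of ATP5E were 8955, 4991, 5936 and 5072 in the same order. PRELID3B had ranks of 4078 for BCL11A, 5319 in K562 and 31846 in WT, and none in 195C>G.

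The TUBB1 promoter held the only TGACCA match among the 6 RefSeq promoter windows available, on the strand opposite to the gene. These windows cover 5 of the 9 genes. There was no window for GP1BA, ITGB3, PF4 and VWF or for the RefSeq 5′ end of GP9, so the motif was not searched there. The 30 bases around it (chr20:59019365-59019394, GRCh38.p14, plus strand, RefSeq) are shown because the match lies 6 bp before the midpoint of the BCL11A region.
TUBB1: tggacacaccctTGGTCAcattgtgagggt
The capitals read TGGTCA, the reverse complement of TGACCA. Another match, to the CACC box, ends inside the first bases shown and is left in lower case. Among the promoters overlapped by a BCL11A region 9.32% held this motif, against 9.19% of all promoters. The summit of the 195C>G region lay 40 bp after the match. The BCL11A list gives no summit, and a midpoint need not be the point of strongest binding.

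NBEAL2 encodes a BEACH-domain protein needed to form α-granules, and its loss causes gray platelet syndrome. BCL11A had a region over its start (NM_015175, chromosome 3, 46979683 to 47009704, plus strand, 54 exons) with a score of 25.9 at rank 7369. K562 had 2 overlapping regions there, at ranks 10762 and 14666. WT and 195C>G had no region in the whole 70.0 kb window. K562 also had a region in intron 1, from 46987281 to 46987658, at rank 746 of 17331, which no other list overlapped. Its midpoint lay 7786 bp after the NM_ start and 521 bp before a further NBEAL2 start of the RefSeq table at 46987990. At that start no other list had a region. BCL11A had a region in the last exon, 54, in the 3′ untranslated region, at rank 6077 with a score of 31.0. The regions 2703 to 3310 bp upstream lay at the promoter of CCDC12, a coiled-coil protein gene on the minus strand, 1 transcript of which also spans the NBEAL2 start. They were found for BCL11A (rank 9456) and K562 (ranks 9154, 14661 and 15801). A further BCL11A region, at rank 6739, lay 8932 bp upstream inside CCDC12.

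The bases before the NBEAL2 start are given because BCL11A and K562 regions overlap them (chr3:46979416-46979665, GRCh38.p14, plus strand, RefSeq). Their GC content was 71.6%, and whether BCL11A scores follow base composition was not tested.
NBEAL2: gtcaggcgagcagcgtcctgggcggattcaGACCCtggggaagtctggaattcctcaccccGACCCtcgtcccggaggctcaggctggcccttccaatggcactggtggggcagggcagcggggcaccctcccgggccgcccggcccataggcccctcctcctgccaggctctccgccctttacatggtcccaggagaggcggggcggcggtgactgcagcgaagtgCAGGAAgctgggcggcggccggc
GACCC matched at -220 to -216 and at -189 to -185, outside the regions of both lists. The CAGGAA match at -23 to -18 lay inside them.

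**Figure D4:**
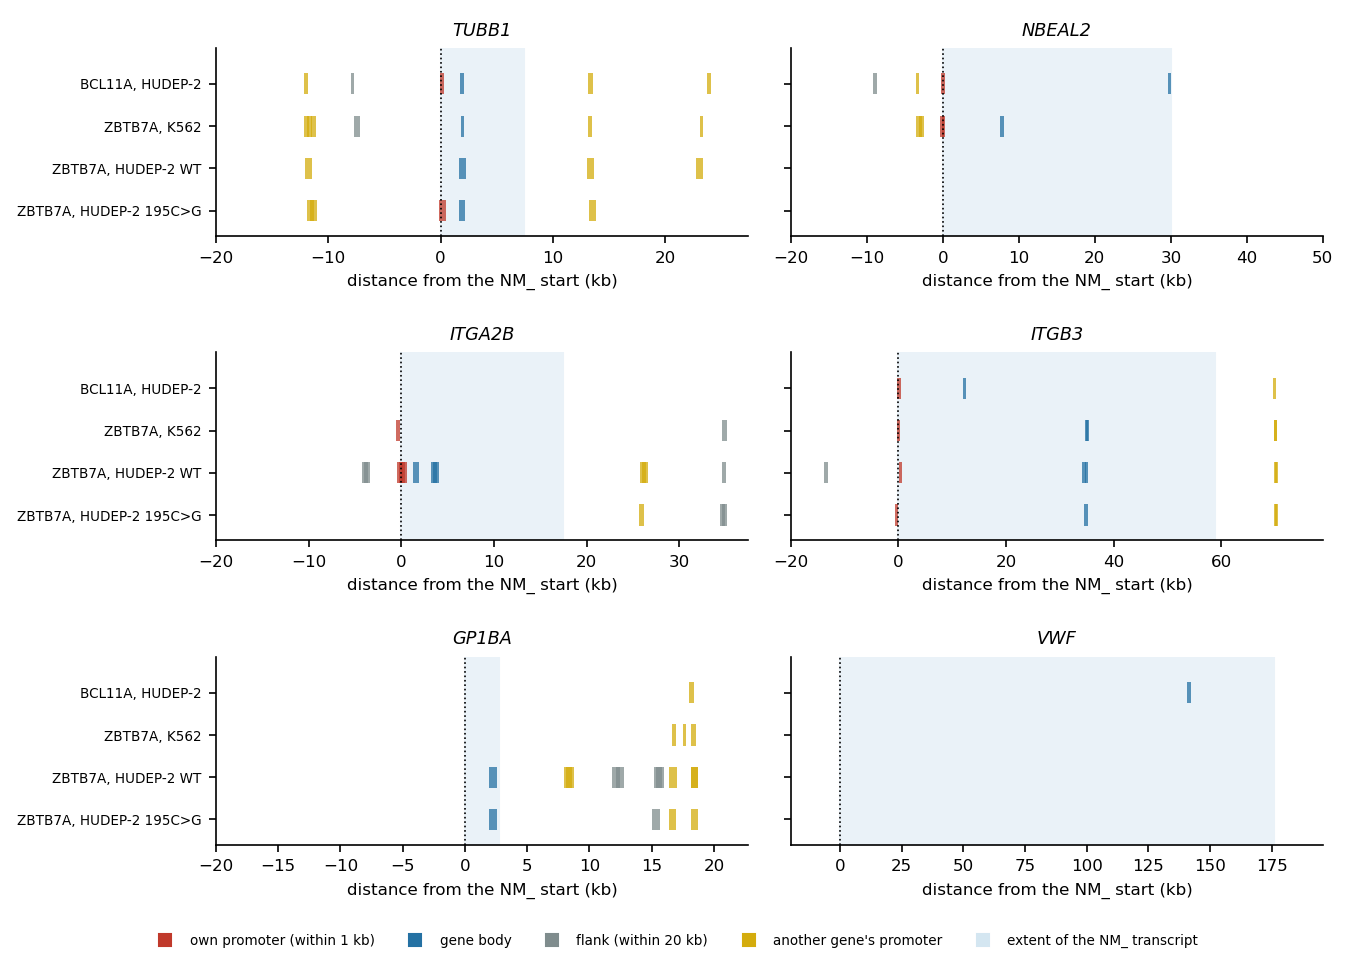
Regions at TUBB1, NBEAL2, ITGA2B, ITGB3, GP1BA and VWF by distance from the NM_ start in kb along the direction of transcription (horizontal axis), 1 row per peak list. Narrow regions are drawn at a minimum width so that they can be seen. WT regions crowd the ITGA2B start where BCL11A and 195C>G have none, and the HUDEP-2 ZBTB7A rows of NBEAL2 are empty.

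PF4 and VWF encode granule cargo, and both were nearly empty. PF4 (NM_002619, chromosome 4, 73980825 to 73982124, minus strand) had no region in its body or within 20 kb in any list, and its window also holds the starts of the chemokine genes PPBP and CXCL5. VWF (NM_000552, chromosome 12, 5948874 to 6124675, minus strand), the longest member at 176 kb, had 1 region. It was a BCL11A region in exon 41, with a score of 14.7 at rank 12101 of 12911. A missing region says only that none passed the authors' threshold at a depth that is unknown.

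Merged where they overlapped, the 112 regions formed 43 sites, of which 14 held regions of both factors, 10 held BCL11A alone and 19 held ZBTB7A alone. All 4 lists shared 7 sites. Of these, 4 lay at the promoters of the neighbours ENO3, EFCAB13, CTSZ and ATP5E, and the other 3 were the ITGB3 promoter, the site 6 kb upstream of GP9 and the intron 1 site of TUBB1. Sites found in 1 list numbered 20. The same tallies over all merged sites of the 4 lists were not taken, so these counts of sites are description only. Of the 24 BCL11A regions, K562 regions overlapped 10 (41.7%), WT regions 10 (41.7%) and 195C>G regions 9 (37.5%). The same shares over the whole BCL11A list, without chromosome 11, were 31.8%, 57.5% and 39.6%. In the other direction BCL11A overlapped 13 of 26 K562 regions (50.0%), against 24.2% over the whole list. It overlapped 10 of 22 195C>G regions (45.5%), against 29.3%, and 15 of 40 WT regions (37.5%), against 25%. Regions of a list that overlap one another were each counted here, and those at promoters of neighbouring genes were included. The overlapped regions are therefore not separate sites.

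Between cells with the WT and the 195C>G γ-globin promoter, 22 of the 40 WT regions at the 9 genes (55.0%) were overlapped in 195C>G. Many of the 40 overlap one another, so they are not independent and no interval is given. WT regions of the same decile of rank over the whole list would give 24.5. By gene, 3 of 11 were overlapped at ITGA2B against 5.97 from rank, 6 of 10 at GP1BA against 6.44, 4 of 6 at ITGB3 against 2.78, 4 of 5 at GP1BB against 4.06, 3 of 4 at TUBB1 against 2.76 and 2 of 4 at GP9 against 2.54. Of the 5 WT promoter regions, that of GP1BB was the 1 overlapped, against 2.36 from rank. In reverse, 19 of the 22 regions in 195C>G (86.4%) were overlapped in WT, against 89.4% over the whole list. The exceptions were the promoter regions of ITGB3 and TUBB1 and the region downstream of GP9 (signal 26.1, rank 18384). Each arm is 1 library, so none of these differences has a replicate check.

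A list of 41 other megakaryocyte genes (receptors, cytoskeleton, granule and transcription factor genes) had promoter regions at 8 for BCL11A, 16 in K562, 13 in 195C>G and 19 in WT, or 19.5, 39.0, 31.7 and 46.3% in that order, against 24.3, 33.1, 29.1 and 44.9% of all genes. NFE2, the transcription factor gene of late megakaryocyte and red cell maturation, had the best rank in all of them: 10 for BCL11A (score 1270.1), 1376 in K562, 75 in 195C>G (signal 206) and 256 in WT (signal 152). The next for BCL11A were GATA1 at 1053 and TLN1, which encodes the integrin activator talin, at 1491. In K562 they were GFI1B, a repressor gene of both lineages, at 3710 and VPS33B, an α-granule trafficking gene, at 4116. In WT they were the α-tubulin gene TUBA4A at 2222 and GATA1 at 2539, and in 195C>G the kindlin-3 gene FERMT3 at 1781 and the scavenger receptor gene CD36 at 3454. NFE2, GFI1B, ITGB1 and TLN1 had a promoter region in all 4 lists. For 19 of the 41 genes there was none in any list, among them the platelet surface genes GP5, GP6, SELP, CLEC1B, TREML1 and P2RY12, and the chemokine genes PPBP and PF4V1. Other surface genes of the same list did have one: CD36, F2R, P2RY1 and TBXA2R in 2 lists and ITGB1 in 4. The share of all genes with a promoter region in every list or in none was not taken.

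TUBB2A, another β-tubulin gene, had promoter regions at rank 31 in WT (signal 240.3) and 40 in 195C>G (signal 227), 346 in K562 and 3473 for BCL11A. TUBB1 had no promoter region in WT or K562. Of 7 other β-tubulin genes, 3 had a promoter region for BCL11A, 6 in K562, 2 in 195C>G and 4 in WT, beside 24.3, 33.1, 29.1 and 44.9% of all genes in that order. Except in K562 these counts lay within about 1 gene of those shares. After TUBB2A the best were TUBB4B at 3476 and TUBB at 11334 for BCL11A, TUBB3 at 2958 and TUBB4B at 3672 in K562, TUBB6 at 19287 and TUBB2B at 20495 in WT, and TUBB6 at 18666 in 195C>G. Of 5 other BEACH-domain genes, 2 had one for BCL11A, 2 in K562, 4 in 195C>G and 4 in WT, beside the same shares of all genes. NBEAL2 had none in the HUDEP-2 ZBTB7A lists, like most genes. LYST, the Chediak-Higashi syndrome gene, stood at rank 1163 in K562, 676 in 195C>G and 1182 in WT. NBEAL1 (3449) and WDFY3 (4277) were the BEACH genes of BCL11A, LRBA (3078) followed LYST in K562, WDFY3 (3664) and LRBA (4768) followed in WT, and WDFY3 (5224) and NBEAL1 (8914) in 195C>G. Of 8 other integrin genes, 2 had a promoter region for BCL11A, 3 in K562, 3 in 195C>G and 3 in WT, beside the same shares of all genes. ITGA2, ITGA6, ITGB2 and ITGB5 had none in any list. ITGB1 stood at rank 6216 for BCL11A, 7715 in K562, 9944 in 195C>G and 5984 in WT. ITGA5 stood at 2199 in K562, 6117 in 195C>G and 5293 in WT. ITGAV, whose product also pairs with that of ITGB3, had ranks of 8631 for BCL11A, 14489 in K562 and 27465 in WT, and ITGA4 had rank 18636 in 195C>G. Of 7 chemokine genes related to PF4, CXCL2 (1071) and CXCL1 (4291) had promoter regions in K562 and none of the 7 had one in the other lists. The shares of all genes were 33.1% in K562, 24.3% for BCL11A, 29.1% in 195C>G and 44.9% in WT.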

How the data were processed

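Peak lists from 16 ChIP-seq libraries were used. The submitters' processing notes name Trimmomatic 0.3.2, Bowtie2 2.2.9, Bowtie, Picard and bedtools and the build GRCh38/hg38, with no role for each. The peak caller settings are not given in the sources used here. The BCL11A list gives a score per region, deposited by the authors, and the K562 list gives positions only. Per the file names, both passed the irreproducible discovery rate filter over replicates. For the ΔGγ cells the deposited tables hold the authors' signal per region (SPP, per the file names), a −log10 false discovery rate and a summit, on a genome with a modified chromosome 11. No member lies there.

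Standard chromosomes were kept and duplicate regions merged into 1, which left out 869 lines of the K562 list, 433 of WT, 194 of 195C>G and 109 of BCL11A. Overlapping regions are not separate sites: 39.6% of WT regions overlap another WT region. Starts came from the deposited annotation, and for chromosome 11 in the hg38 lists from the RefSeq table of GRCh38.p14 (1259 of 1274 genes matched). In the annotation 25 gene symbols had turned into dates, SEPTIN5 among them. They were read through their accessions, after which 1 was still a date. Overlap means at least 1 bp. Promoter sequences of 5 members came from RefSeq. Python 3.11.15 with pandas 2.3.3 was used, and the assignment of regions to genes was tested on simulated regions.

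Text names all 9 members, genes with a start within 1 kb of a region at them, and the 3 best-ranked promoters per list of the other genes, with features chosen after their values were seen where stated. Alternatives changed the promoter window, the flank, the share of each list used, the overlap rule and the starts. The members and lists were chosen with earlier results of these data known. Read depth is unknown, and no test was run because no list holds replicates.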

Additional observations from a re-analysis of the deposited data

How the results depend on the processing

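No paired analysis was possible because the lists pool replicates or hold 1 library, and for the same reason no replicate could be left out. Of 82 alternative values 53 stayed within 1.5 times the value reported and 29 did not. With the better-ranked 50% of each list, members with a promoter region fell to 0 in K562, 2 for BCL11A and 1 in 195C>G (all genes 20.7, 13.8 and 17.8%), other megakaryocyte genes to 5 for BCL11A and 8 in K562, and regions at the members to 11 in K562, 11 in 195C>G and 12 for BCL11A. For WT a 5 kb promoter window gave 6 members (50.2% of all genes), and lists cut to 12911 regions gave 1 (25.9%). A 500 bp window gave 5 other megakaryocyte genes for BCL11A (20.9% of all genes). With a 10 kb flank K562 had 15 regions at the members and 195C>G 12, and with 50 kb K562 had 42, WT 69 and 195C>G 35. Without regions at promoters of other genes 11 were left in 195C>G, 13 in K562 and 25 in WT. When overlap had to cover 50% of both regions, BCL11A regions overlapped in K562, WT and 195C>G numbered 6, 4 and 4, K562 regions overlapped by BCL11A, WT and 195C>G 7, 10 and 6, WT regions overlapped by BCL11A and K562 5 and 11, and 195C>G regions overlapped by BCL11A and K562 4 and 7. WT regions overlapped in 195C>G were then 40.0%. Shorter lists or windows lower such counts and longer windows raise them by construction, and the stricter overlap rule can only lower an overlap.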

Other observations

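The motif shares were also taken over all RefSeq promoter windows outside chromosome 11 that a region overlapped, as a description. GACCC was found in 58.9% of windows overlapped in K562, 58.7% in 195C>G, 54.7% in WT and 54.9% for BCL11A, against 42.1% of all windows. AGATAA was found in 3.97% in K562 and 4.39% in WT, against 9.17%. The windows are not independent, and the part of base composition in these shares was not tested. None of the 6 windows at the members held AGATAA. Other forms of the GATA motif were not searched, so the windows are not shown to lack one.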
